A study of Mus musculus with 10 samples.

Results

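Obese mice lacking ASC, the adaptor of the inflammasome, were compared with obese mice lacking caspase-1, the protease that the adaptor recruits. Epididymal fat of 3 ASC-/- mice was set against epididymal fat of 3 Casp1-/- mice, and 17097 genes were compared between them. These 6 arrays are those whose titles carry the names ASC-/- and Casp1-/-, out of 10 arrays in the study. The other 4 arrays came from wild-type (WT) mice and serve here to show on which side of WT a gene lay and to estimate the spread. Every animal was a male on the C57/Bl6 background. All were put on the high fat diet (45% of energy from fat) at 8 to 12 weeks of age and stayed on it for 16 weeks. WT mice carried both genes, ASC-/- mice carried a null allele of the gene for ASC (written ASC1 in 1 label field of these samples, with Pycard as its gene symbol), and Casp1-/- mice a null allele of Casp1. Each array held RNA of 1 mouse, per the labels. How the null alleles were made, whether they are confined to a cell type and whether the mice were littermates are not given in the sources used here. Biotin-labelled RNA was read on Affymetrix HT_MG-430 PM arrays, and every value below is a log2 signal normalized by RMA, so that a difference of 1 is a doubling.

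An inflammasome forms when a sensor such as NLRP3 meets a danger signal and gathers the adaptor ASC, which in turn gathers the protease caspase-1. Caspase-1 then cuts the precursors of interleukin-1beta and interleukin-18 into their active forms and opens pores in the membrane. Some sensors carry their own recruiting domain and can reach caspase-1 without ASC, and ASC can also gather other caspases. In the epididymal fat of obese mice, macrophages crowd around dying adipocytes, take up their lipid and express lysosomal and lipid-handling genes, and both the complex and its cytokines are found mainly in such cells. The comparison asks where fat lacking the adaptor differs from fat lacking the protease.

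The arrays compared differed in their technical controls as well as in genotype. Poly-A spike-in controls are bacterial RNAs mixed into each sample ahead of labelling. The mean of their 24 probe sets was 7.51 to 8.07 on the 3 Casp1-/- arrays and 6.21 to 6.30 on the 3 ASC-/- arrays, while WT replicate 1 (7.80) lay with the former and WT replicates 2 to 4 (5.76 to 6.50) with the latter. For actin, the signal near the 3' end exceeded that near the 5' end, a gap that widens when RNA is broken, by 0.82 to 0.98 in Casp1-/- and 0.54 to 0.67 in ASC-/-, with WT from 0.46 to 1.05. Neither set of spike-in levels holds both null genotypes. Genotype and spike-in level therefore cannot be told apart in this comparison, which holds for each result below. A fit with the spike-in set as a block takes its batch effect from WT replicate 1 against the other WT arrays alone. That array also stood apart by its smooth muscle and pericyte markers (mean of 9 genes 9.49, against 7.09 to 7.73 on the other WT arrays and 8.61 on ASC-/- replicate 1). Blocked values are given beside the results with that limit. Control probe sets for background had array medians of 2.91 to 3.15 and reached 5.01. Where a mean lies within that range the size of a difference is not known, and levels stand in its place.

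**Figure D1:**
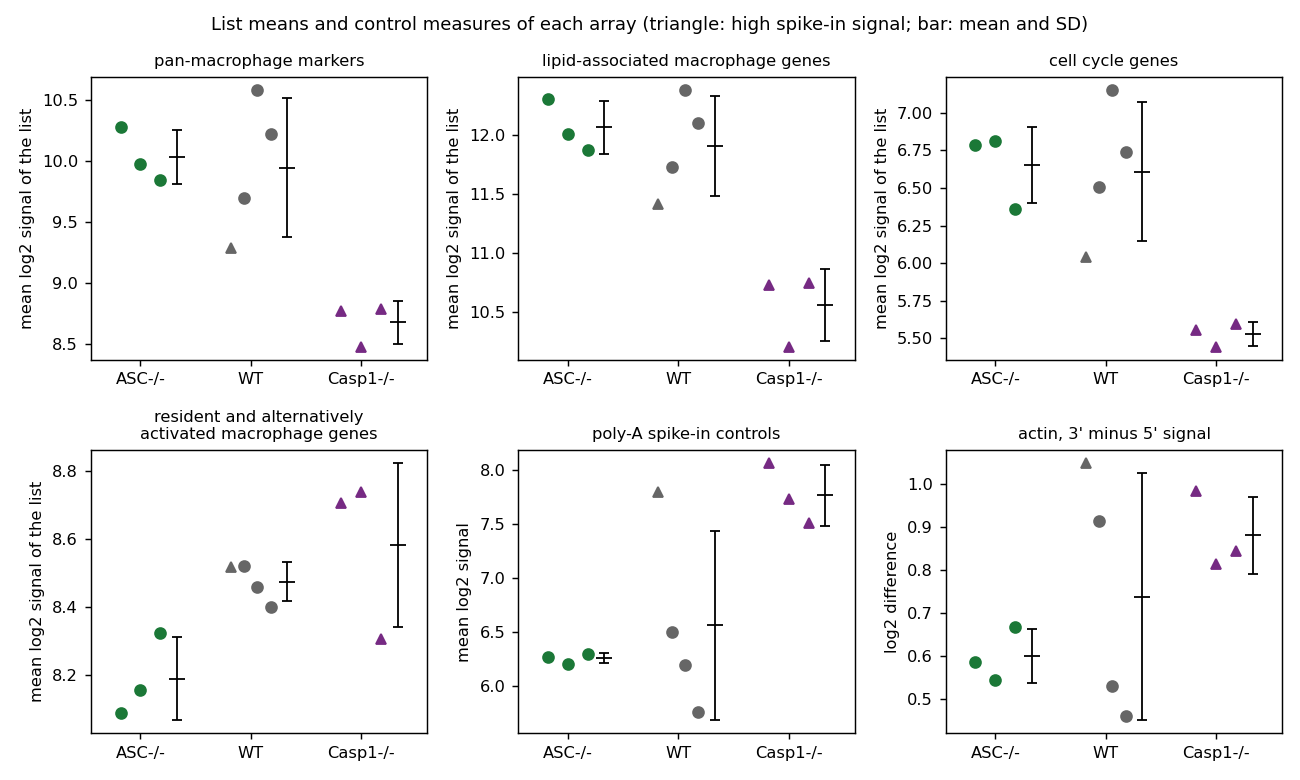
Mean log2 signal of 4 gene lists, of the poly-A spike-in controls and the 3' minus 5' difference of actin on each of the 10 arrays (points, triangles for the arrays with high spike-in signal), with mean and SD per genotype (bars). The ASC-/- arrays lie above all Casp1-/- arrays for the pan-macrophage, lipid-associated macrophage and cell cycle lists, and WT replicate 1, the WT array with high spike-in signal, is the lowest WT array in each of these 3.

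Each targeted gene was lowest in its own null genotype. Pycard read 3.20, 3.71 and 3.30 on the ASC-/- arrays, 8.77, 8.39 and 8.62 on the Casp1-/- arrays and 9.10 to 10.57 in WT. It was at background in ASC-/- fat and present in Casp1-/- fat, below every WT array (adjusted p = 1.73e-04 by limma for ASC-/- against Casp1-/-). Its 2 other probe sets differed by -0.16 and -0.11 only and did not show the deletion. Casp1 read 9.47, 9.30 and 9.30 in ASC-/- and 4.86, 4.98 and 4.69 in Casp1-/- (adjusted p = 1.73e-04), so the ASC-/- arrays lay within the WT range of 8.71 to 9.99 and the Casp1-/- arrays within the background range.

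Casp4, the neighbour of Casp1 that encodes the caspase sensing bacterial lipopolysaccharide inside cells, was lower in Casp1-/- fat too. It read 8.18, 8.12 and 8.19 in ASC-/-, 6.50, 6.24 and 6.60 in Casp1-/- and 7.64 to 8.37 in WT. The groups of null arrays did not overlap, and the difference was 3.29-fold (1.72 ± 0.17 SE, adjusted p = 0.00346). With the spike-in block it was 1.21 and missed the threshold (adjusted p = 0.071).

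The gene with the smallest p was neither target. Gdpd3, which encodes an enzyme that makes lysophosphatidic acid, read 10.78, 10.66 and 10.41 in ASC-/-, 4.37, 4.85 and 4.88 in Casp1-/- and 5.44 to 5.76 in WT. It was thus high in ASC-/- fat and within the background range in Casp1-/- fat, with an adjusted p of 2.73e-07 (1.14e-04 with the block). Gdpd3 was the single gene whose null genotypes lay past the threshold on opposite sides of WT. It lies on chromosome 7, as does Pycard.

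Several genes chosen because they lie on the same chromosome as Pycard or are known to vary between mouse substrains set ASC-/- fat apart from the other genotypes. The choice was made with earlier results of these data known. Ide, the protease that degrades insulin, read 10.24, 10.32 and 10.19 in ASC-/- against 9.36, 9.23 and 9.41 in Casp1-/-, and WT (9.10 to 9.36) matched the latter. It was 1.89-fold higher (0.92 ± 0.09 SE, adjusted p = 0.00346), and its other 3 probe sets were higher by 0.96 to 1.49. Wdfy1, whose protein links Toll-like receptors to their adaptors, was 3.28-fold higher (7.72 ± 0.14 against 6.01 ± 0.10, SD, n = 3 each; adjusted p = 0.00307), again with WT near Casp1-/- (5.88 to 6.48), and its other probe sets were higher by 0.11 to 1.67. Both stayed past the threshold with the block, at 1.10 for Ide (adjusted p = 0.0286) and 1.78 for Wdfy1 (adjusted p = 0.0473). Slx1b, a DNA repair nuclease subunit on chromosome 7, was lower in ASC-/- fat (3.60 ± 0.21 against 4.92 ± 0.26, adjusted p = 0.00684), with both means in the background range and other probe sets between -0.18 and 0.04; it did not pass with the block (adjusted p = 0.205). Entpd4, a nucleotide-cleaving enzyme of the Golgi, was 2.37-fold lower (7.10 ± 0.02 against 8.35 ± 0.13, adjusted p = 0.0122, other probe set -0.335) and lost the call without ASC-/- replicate 1, ASC-/- replicate 2 or Casp1-/- replicate 2 and with the block (-0.58, adjusted p = 0.447). Dock2, needed for leukocyte migration, was 6.87 to 6.98 in ASC-/-, 7.88 to 8.22 in Casp1-/- and 8.84 to 10.34 in WT. The null arrays did not overlap, but the difference between them missed the threshold (-1.13 ± 0.30 SE, adjusted p = 0.0535). Nnt, a mitochondrial transhydrogenase, overlapped (8.36 to 8.51 against 7.94 to 8.47, adjusted p = 0.289).

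**Figure D2:**
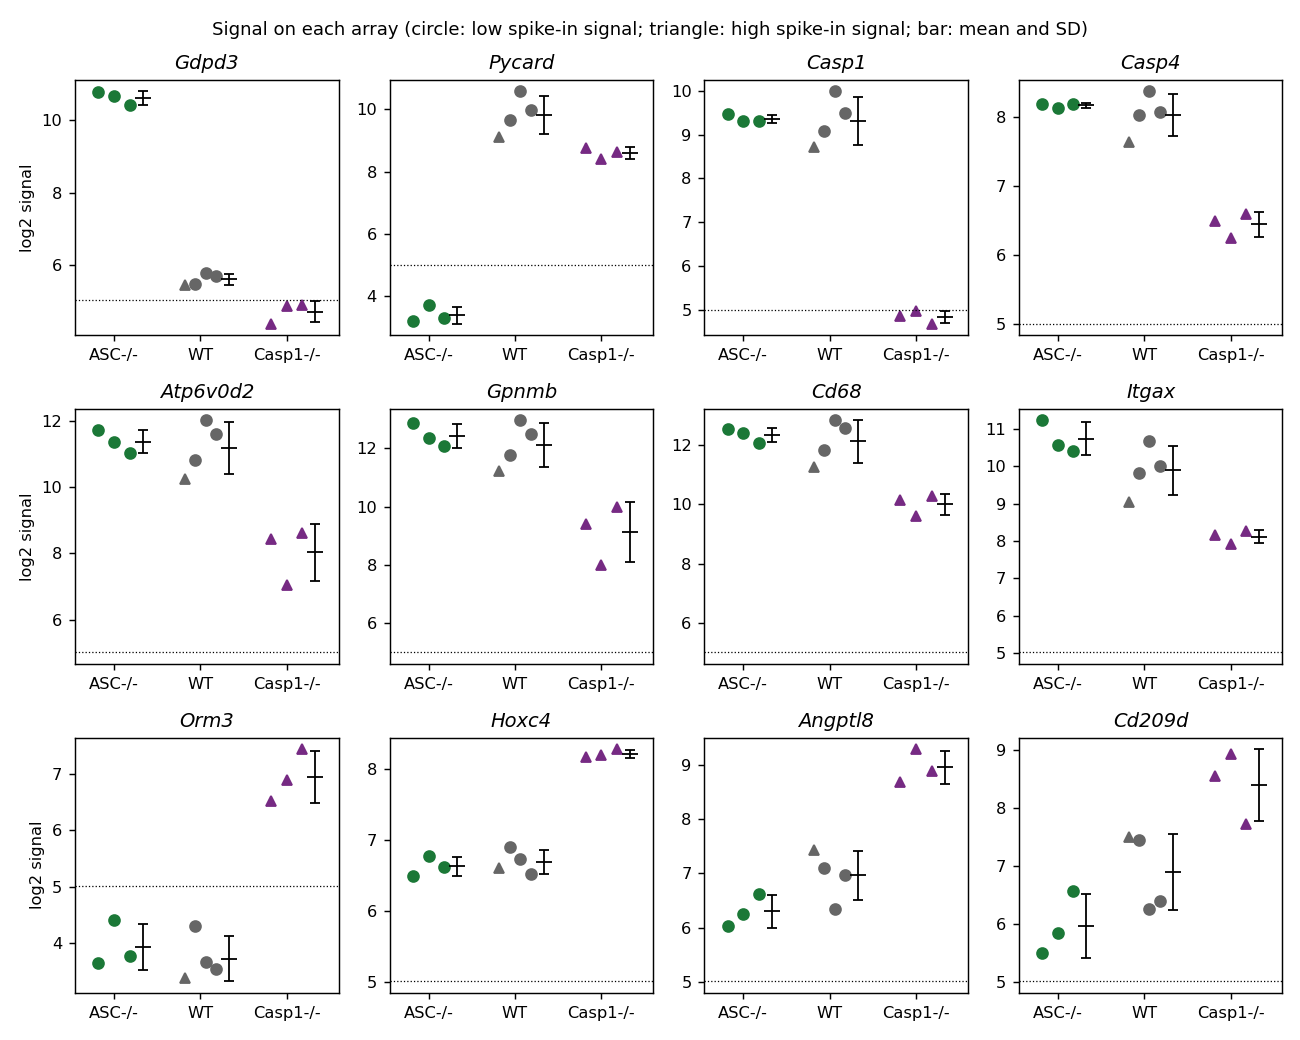
Log2 signal of 12 genes on each array by genotype (points, triangles for high spike-in signal), with mean and SD (bars) and the highest background control level of 5.01 as a dotted line. Gdpd3 is high in ASC-/- fat alone, Casp1 and Casp4 are low in Casp1-/- fat alone, and Orm3, Hoxc4 and Angptl8 are highest on the 3 Casp1-/- arrays.

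Over all genes, 1264 of 17097 (7.39%) were past the threshold of an adjusted p under 0.05. Of these, 658 (3.85%) were higher and 606 (3.54%) lower in ASC-/- than in Casp1-/- fat. By size the 2 directions were unequal, since 402 genes were higher by more than 2-fold and 147 lower. When each array was centred on its own median, the split was 552 higher and 813 lower. Before adjustment, 4446 genes had a p under 0.05. The ASC-/- and Casp1-/- arrays did not overlap for any of the 1264 genes. For comparison, 2962 genes (17.3%) were higher without overlap and 3942 (23.1%) lower over the whole table. For 95 of the called genes both means lay within the background range, and for 159 one mean did.

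The WT arrays mostly lay with ASC-/- fat. The WT mean was nearer the ASC-/- mean for 641 of the 658 higher genes and for 580 of the 606 lower ones, and it lay between the null means for 578 and 413. All 4 WT arrays lay above all 3 Casp1-/- arrays for 627 of the higher genes, and below them for 568 of the lower genes. These counts describe where WT lay and are no test, since the genes were chosen with the same Casp1-/- arrays. WT replicate 1, the WT array that shares the spike-in level of the Casp1-/- arrays, lay nearer the Casp1-/- mean for 338 of the higher and 138 of the lower genes.

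The number of genes called changed when single arrays were left out, which also makes a group smaller. It was 47 without ASC-/- replicate 1, 154 without ASC-/- replicate 2, 664 without ASC-/- replicate 3, 352, 68 and 326 without Casp1-/- replicates 1, 2 and 3, and 1972, 1048, 2615 and 868 without WT replicates 1, 2, 3 and 4. With the spike-in block 63 genes (0.368%) were past the threshold, 13 of them among the 1264. The median log2 difference of the higher genes was 1.19 without the block and 0.53 with it, and that of the lower genes -0.67 and -0.53. With 1 array left out these medians ran from 1.10 to 1.27 and from -0.71 to -0.64. The sign of all 1264 was the same with the block. Without each single array it was too, as it must be where groups do not overlap.

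**Figure D3:**
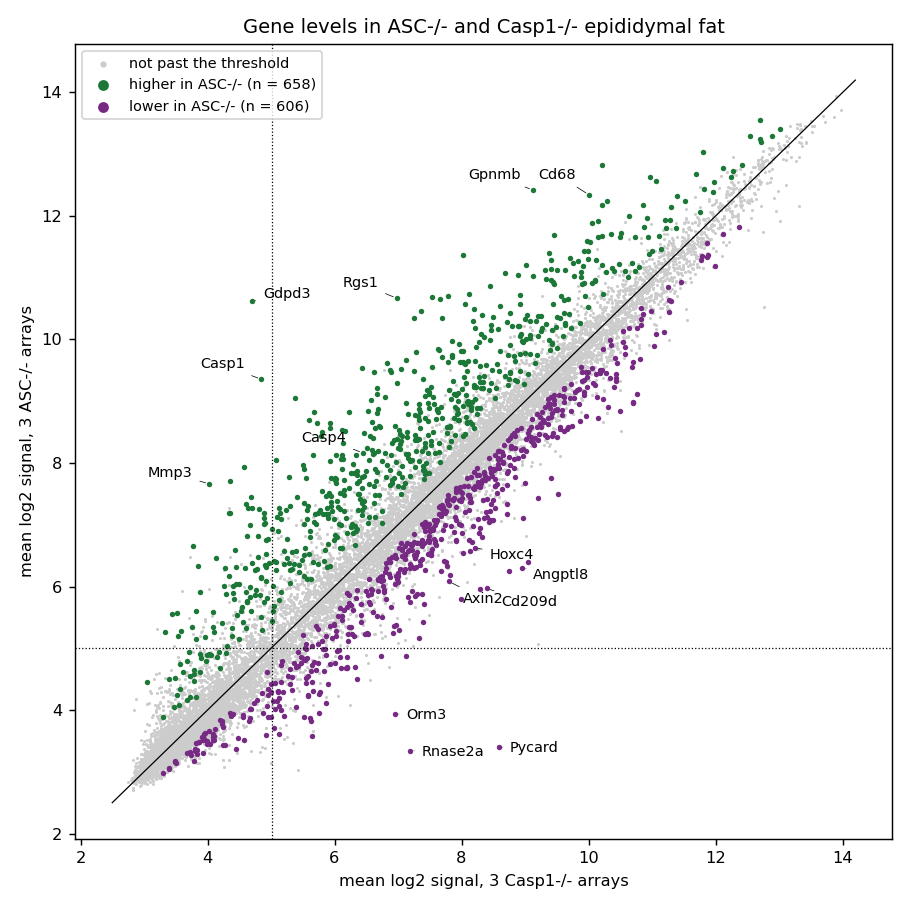
Mean log2 signal of each gene on the 3 ASC-/- arrays (y axis) against the 3 Casp1-/- arrays (x axis). Green points are the 658 genes past the threshold and higher in ASC-/-, purple points the 606 lower, grey points the rest; dotted lines mark the highest background control level. The green points reach farther from the diagonal than the purple ones, with Gdpd3, Casp1, Mmp3 and Rgs1 among those farthest above it and Pycard, Rnase2a and Orm3 farthest below.

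A small set of genes stayed past the threshold whichever single array was left out. There were 43, of which 30 were lower and 13 higher in ASC-/- fat, and 10 of them also passed with the spike-in block. None belonged to the macrophage, lipid-associated, lysosome or cell cycle lists described below. For 38 of them all WT arrays lay on the ASC-/- side of all Casp1-/- arrays. That count does not say which null genotype WT was nearer. It holds Gdpd3, whose WT arrays (5.44 to 5.76) were nearer the Casp1-/- mean (4.70) than the ASC-/- mean (10.62).

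Orm3 and Angptl8 were among the lower genes of this set. Orm3, an acute-phase glycoprotein of the orosomucoid family, read 3.64, 4.40 and 3.77 in ASC-/-, 6.53, 6.90 and 7.44 in Casp1-/- and 3.38 to 4.30 in WT. It was above background in Casp1-/- fat alone (adjusted p = 0.00346; 0.0393 with the block). Angptl8, a feeding-induced inhibitor of lipoprotein lipase, was 6.02, 6.25 and 6.62 against 8.69, 9.29 and 8.88, with WT from 6.35 to 7.42. It was 6.32-fold lower in ASC-/- (adjusted p = 0.00346), and the Casp1-/- arrays again lay above all others, but it missed the threshold with the block (-2.05, adjusted p = 0.113).

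Neighbouring homeobox genes on chromosome 15 were lower together. Hoxc4 read 6.50, 6.77 and 6.62 in ASC-/-, 8.16, 8.19 and 8.27 in Casp1-/- and 6.52 to 6.90 in WT, a difference of -1.58 ± 0.11 (SE, adjusted p = 5.29e-04; -1.70 with the block, adjusted p = 0.0159). Hoxc5 averaged 4.88 ± 0.19 against 6.74 ± 0.28 (SD, n = 3 each; adjusted p = 0.00346, and 0.0763 with the block), the former within the background range. Hoxc8, of the same cluster, was also lower (-1.06, adjusted p = 0.0238) but lost the call with the block and without any 1 Casp1-/- array or ASC-/- replicates 1 or 2, and Hoxc9 (-0.75, adjusted p = 0.217) and Hoxc10 (-0.15) were not past the threshold. These homeobox genes, which set position along the body axis, were picked out after their values were seen.

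Axin2, Smad7, Gli2, Pdgfc and Tslp, picked out of the same set after their values were seen, were also lower. Axin2, a target and brake of Wnt signalling, was 5.94 to 6.25 in ASC-/- and 7.59 to 8.03 in Casp1-/- (-1.71 ± 0.18 SE, adjusted p = 0.00465). Smad7, which blocks TGF-beta receptors, was 5.62 to 6.12 against 6.99 to 7.32 (-1.31 ± 0.15 SE, adjusted p = 0.00592). Both passed with the block as well, at -1.99 and -1.56, and WT lay with ASC-/- for both (5.88 to 6.50 and 5.51 to 5.84). Gli2, a transcription factor of the Hedgehog pathway, was 5.13 to 5.36 against 6.28 to 6.84 (-1.30, adjusted p = 0.00629), and the growth factor gene Pdgfc 8.75 to 9.08 against 9.80 to 9.93 (-0.90, adjusted p = 0.00543). Tslp, a cytokine of barrier tissues, was the reverse in its relation to WT, with ASC-/- (4.16 to 4.40) below both Casp1-/- (4.93 to 5.23) and WT (4.94 to 5.11). These ASC-/- values lie within the background range and the others at its upper edge of 5.01, so the size of the difference is not known. Gli2, Pdgfc and Tslp did not pass with the block (adjusted p = 0.0643, 0.137 and 0.215).

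Among the 13 higher genes, Prrx1, a transcription factor of mesenchymal progenitors, averaged 9.87 ± 0.12 in ASC-/- and 8.22 ± 0.24 in Casp1-/- (SD, n = 3 each), with WT from 9.37 to 9.99 (1.65 ± 0.19 SE, adjusted p = 0.00629). Npas2, a partner of the clock protein BMAL1, read 5.75, 5.08 and 4.97 against 3.45, 3.35 and 3.18, the latter at background (adjusted p = 0.00346). Its other probe set differed by 0.05. Tmem176a, a membrane protein of myeloid cells, was 10.49 to 10.76 against 9.64 to 9.73 (0.97, adjusted p = 0.00307), and Cox6a2, the muscle form of a cytochrome oxidase subunit, 6.15 to 6.41 against 5.21 to 5.44 (0.97, adjusted p = 0.00777). Cox6a2 lies 4 tested genes from Pycard. None of these 4 passed with the block (adjusted p = 0.0679 to 0.215).

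**Figure D4:**
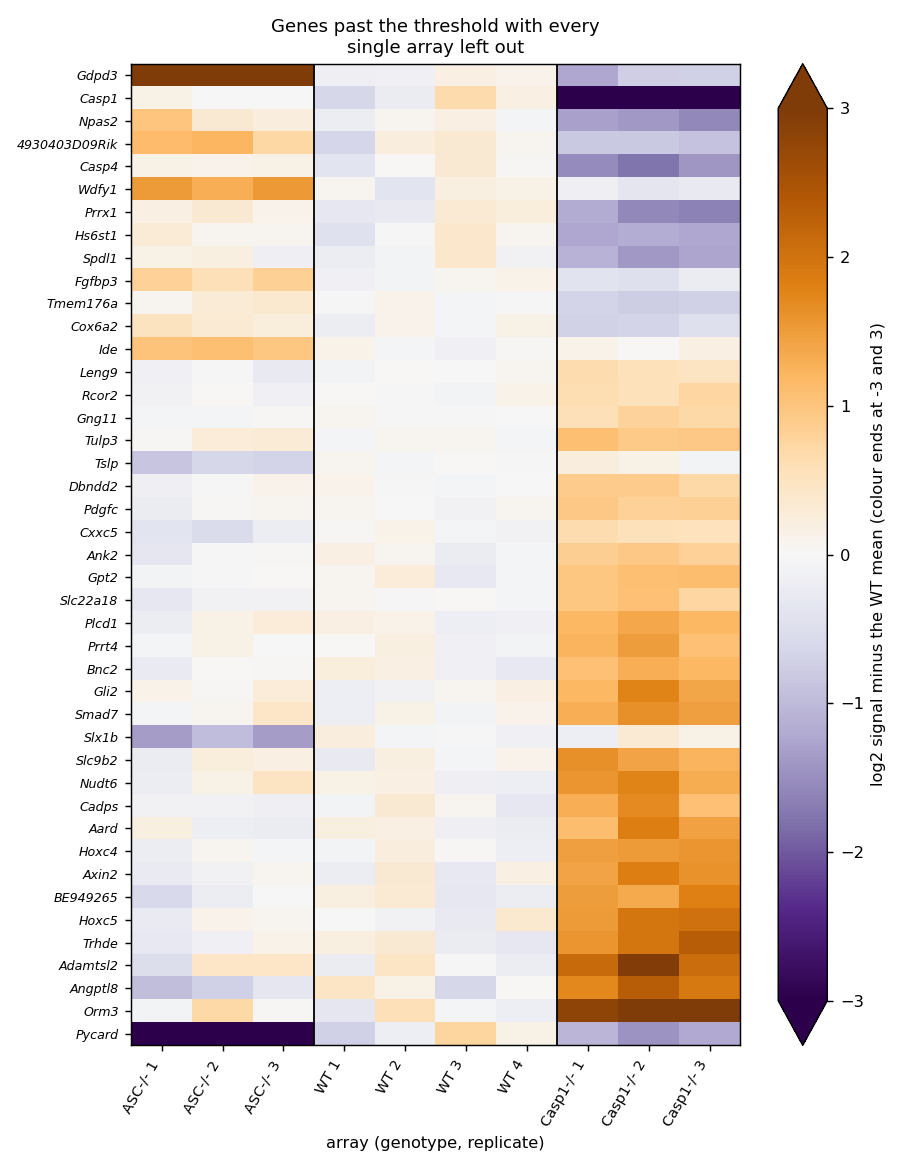
The 43 genes that were past the threshold with every single array left out (rows) on each of the 10 arrays (columns), coloured by log2 signal minus the WT mean (orange above WT, purple below; colours end at -3 and 3). Most rows are pale in ASC-/- and strongly coloured in Casp1-/-; Gdpd3, Ide, Wdfy1, Fgfbp3, Slx1b, Tslp and Pycard are among the rows coloured in ASC-/-.

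The largest rises in ASC-/- over Casp1-/- fat, with the targets and predicted genes (Gm and a number, or Rik names) left out, were Gdpd3 and 11 further genes. These were Rgs1, a brake on chemokine receptors, Zranb3, a DNA repair helicase, Mmp3, the metalloproteinase stromelysin, Anpep, an aminopeptidase of myeloid cells, Hpgds, which makes prostaglandin D2, Atp6v0d2, a proton pump subunit of macrophages and osteoclasts, Gpnmb, a glycoprotein of lipid-loaded macrophages, Adam8, a sheddase of leukocytes, Cd72, a receptor of B cells and macrophages, the stress transcription factor Atf3, and Glipr1. Rgs1 read 11.11, 10.55 and 10.34 in ASC-/-, 7.45, 5.74 and 7.75 in Casp1-/- and 8.92 to 11.20 in WT, and was 12.9-fold higher (3.69 ± 0.66 SE, adjusted p = 0.0166). The lowest WT value there was that of WT replicate 1, and Casp1-/- replicate 2 was the lowest of all arrays. Atp6v0d2 read 11.73, 11.36 and 11.02 against 8.42, 7.04 and 8.62 (10.1-fold, adjusted p = 0.0115), and Gpnmb 12.87, 12.33 and 12.07 against 9.39, 7.99 and 9.99 (9.85-fold, adjusted p = 0.0135). In both, ASC-/- replicate 1 was the highest ASC-/- array and Casp1-/- replicate 2 the lowest Casp1-/- array. Mmp3 (7.53 to 7.90 against 3.53 to 4.44), Anpep (7.37 to 8.19 against 3.91 to 4.66) and Hpgds (7.41 to 8.45 against 4.47 to 4.72) had Casp1-/- arrays within the background range. The other 5 were higher by 3.10 to 3.68 (Zranb3, Adam8, Cd72, Atf3 and Glipr1). Outside Gdpd3, all 11 lost the call without ASC-/- replicate 1 and without Casp1-/- replicate 2. With the spike-in block none of the 11 passed.

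The promoter sequences were selected by motif and do not represent the group. Hpgds, Cd72 and Atf3 are the 3 of the 9 largest rises with a promoter entry that hold GAGGAA on either strand. Itgax, which is not among the largest rises, was added and holds TGACTCA but not GAGGAA. Spi1, which encodes the macrophage factor PU.1, was higher in ASC-/- fat as well (2.66). Whether PU.1 acts on these genes was not tested. Capitals mark GAGGAA or its reverse complement TTCCTC, the core of the site that PU.1 binds, or TGACTCA or its reverse complement TGAGTCA, the site of AP-1, the dimer that FOS forms with JUN. Each is the 250 bases before the annotated start, from RefSeq on GRCm38.p6, on the strand of the gene: Hpgds at chr6:65144731-65144980 (minus strand), Cd72 at chr4:43454627-43454876 (minus), Atf3 at chr1:191183334-191183583 (minus) and Itgax, the CD11c gene described below, at chr7:128129300-128129549 (plus).
Hpgds: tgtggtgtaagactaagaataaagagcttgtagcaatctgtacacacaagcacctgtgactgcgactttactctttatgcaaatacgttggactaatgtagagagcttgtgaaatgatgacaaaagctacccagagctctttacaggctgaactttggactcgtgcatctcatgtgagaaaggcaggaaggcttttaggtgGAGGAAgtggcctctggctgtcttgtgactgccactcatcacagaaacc
Cd72: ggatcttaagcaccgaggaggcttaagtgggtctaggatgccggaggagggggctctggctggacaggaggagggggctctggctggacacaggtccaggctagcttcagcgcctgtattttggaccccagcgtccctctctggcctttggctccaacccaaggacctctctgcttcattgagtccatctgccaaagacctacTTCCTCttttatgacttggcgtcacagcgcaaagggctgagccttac
Atf3: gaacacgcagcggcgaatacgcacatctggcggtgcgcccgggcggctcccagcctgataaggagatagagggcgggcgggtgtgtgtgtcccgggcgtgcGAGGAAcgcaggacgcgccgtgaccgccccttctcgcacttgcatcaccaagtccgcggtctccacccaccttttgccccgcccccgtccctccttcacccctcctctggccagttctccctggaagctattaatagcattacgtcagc
Itgax: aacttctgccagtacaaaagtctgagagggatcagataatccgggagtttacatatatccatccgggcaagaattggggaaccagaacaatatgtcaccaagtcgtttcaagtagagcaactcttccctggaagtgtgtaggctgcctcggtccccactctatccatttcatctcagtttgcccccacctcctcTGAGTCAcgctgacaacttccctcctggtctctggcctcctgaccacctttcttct

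Of the 17097 genes tested, 13605 had such a window. On either strand GAGGAA stood in 22.8% of them, in 32.2% of the 323 genes higher in ASC-/- by more than 2-fold and in 28.4% of the 109 lower by more than 2-fold. TGACTCA stood in 3.86%, 6.81% and 2.75%. CACGTG, the E-box read by clock proteins and by the lysosomal regulators TFEB and TFE3, stood in 7.58%, 7.74% and 5.5%. Of the 9 largest rises with an entry, 3 held GAGGAA. These shares are descriptions of letters and not of binding.

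Most macrophage markers were higher in ASC-/- than in Casp1-/- fat. Of 23 measured pan-macrophage markers, 15 were past the threshold upwards and 1 downwards (median log2 difference 1.56, against -0.042 over all genes). Over all genes 3.85% were higher and 3.54% lower, and each list count below is to be read against these shares. Cd68, a lysosomal glycoprotein of macrophages, read 12.55, 12.40 and 12.08 in ASC-/-, 10.16, 9.60 and 10.27 in Casp1-/- and 11.27 to 12.84 in WT, and was 5.04-fold higher (adjusted p = 0.0129). Adgre1, a surface receptor of mature macrophages, read 11.54, 11.19 and 10.91 against 9.10, 8.83 and 9.13 (4.56-fold, adjusted p = 0.0142). For both the null arrays were well apart, and the ASC-/- arrays lay within the WT range. The signalling adaptor Tyrobp (3.16-fold) and the pore-forming protein Mpeg1 (3.43-fold) passed too, as did Spi1 (2.66), Cd84 (2.43), the Fc receptors Fcgr1 (1.80) and Fcgr3 (1.63) and the NADPH oxidase subunit Cybb (1.66). Csf1r (1.18), Itgam (1.83) and Lyz2 (0.38) did not pass, and the marker that was lower was Cd163. In bulk tissue, fewer cells of a type and less RNA per cell cannot be told apart.

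Genes of lipid-associated macrophages, the cells that surround dying adipocytes, were counted in the same way. Of 19 measured, 15 were past the threshold, all higher in ASC-/- (median 1.61). Itgax read 11.24, 10.57 and 10.42 in ASC-/-, 8.17, 7.92 and 8.25 in Casp1-/- and 9.06 to 10.68 in WT, and was 6.20-fold higher (adjusted p = 0.0106). It lies 2 tested genes from Pycard on chromosome 7. The lipid droplet coat gene Plin2 read 13.32, 13.34 and 13.22 against 12.61, 12.36 and 12.66 (1.68-fold, adjusted p = 0.00957). The cholesterol ester hydrolase Nceh1 (6.01-fold), the sugar phosphate transporter Slc37a2 (7.24-fold) and the lipid receptor Trem2 (2.91, with its other probe set at 0.04) passed as well. Lpl (-0.07), Cd36 (0.07), Apoe (-0.33) and Lgals1 (-0.10), which adipocytes or other cells of fat also express, did not.

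Both macrophage results shared the limits given above. The 15 and 15 upward calls became 0 and 0 without ASC-/- replicate 1, 0 and 1 without Casp1-/- replicate 2, 1 and 4 without ASC-/- replicate 2, 6 and 10 without Casp1-/- replicate 1, 6 and 11 without Casp1-/- replicate 3, and 0 and 0 with the spike-in block, where the medians were 0.52 and 0.61. With the actin difference as a covariate 3 and 6 calls were left, and the medians were 0.96 and 0.90. Without ASC-/- replicate 1 the medians were 1.40 and 1.42, and without Casp1-/- replicate 2 they were 1.45 and 1.53. The mean of the pan-macrophage list was 9.85 to 10.28 on the ASC-/- arrays, 8.48 to 8.78 on the Casp1-/- arrays and 9.29, 9.69, 10.58 and 10.22 on WT replicates 1 to 4.

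Of 36 lysosome genes measured, 17 were past the threshold and all of these were higher in ASC-/- (median 0.58). The lists share members. Ctsd, Ctsk, Ctsl, Lipa and Atp6v0d2 were also counted among the lipid-associated macrophage genes, and Ctss among the pan-macrophage markers. The acid lipase Lipa read 11.69, 11.25 and 10.95 against 9.58, 9.01 and 9.62 (3.70-fold, adjusted p = 0.0142), and the cathepsins Ctsk and Ctss were 4.71-fold and 2.36-fold higher (adjusted p = 0.016 and 0.0157). Subunits of the proton pump other than Atp6v0d2 passed too, among them Tcirg1 (1.79), Atp6v1b2 (1.01) and Atp6v1a (0.98), and so did the cholesterol exporter Npc1 (1.22). Lamp1 (0.24), Npc2 (0.03) and Atp6v0d1 (-0.05) did not pass. The count was 0 without ASC-/- replicate 1, ASC-/- replicate 2 or Casp1-/- replicate 2 and with the block (median 0.29), 6 and 3 without Casp1-/- replicates 1 and 3, and 2 with the actin covariate (median 0.42). The median was 0.515 without ASC-/- replicate 1, 0.60 without ASC-/- replicate 2 and 0.55 without Casp1-/- replicate 2.

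Genes of the cell cycle were higher in ASC-/- fat as well. All 31 measured were above Casp1-/- fat, and 17 were past the threshold (median 1.14, against -0.042 over all genes). The proliferation marker Mki67 read 8.26, 8.42 and 7.92 in ASC-/-, 6.79, 6.76 and 6.51 in Casp1-/- and 7.67 to 8.76 in WT (2.86-fold, adjusted p = 0.0132). The apoptosis inhibitor and mitotic gene Birc5 was 3.51-fold higher (adjusted p = 0.013), the cyclin Ccna2 2.75-fold (adjusted p = 0.0133), and Cenpe, a kinetochore motor, read 5.67 to 6.32 against 4.41 to 4.47 (adjusted p = 0.0115, other probe set 0.46). In each of these the ASC-/- arrays lay above all Casp1-/- arrays and among the WT arrays. The count was 0 without ASC-/- replicate 1, ASC-/- replicate 2 or Casp1-/- replicate 2, 5 without Casp1-/- replicate 1 and 5 without replicate 3. With the block it was 0, and 24 of 31 were above 0 (median 0.39), and with the actin covariate it was 5 (median 0.79).

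Of 21 genes of resident and alternatively activated macrophages measured, 7 were lower in ASC-/- and 2 higher (median -0.65). Cd209g, a lectin of such cells, read 5.52, 5.15 and 5.59 in ASC-/-, 7.34, 8.05 and 6.80 in Casp1-/- and 6.36 to 7.03 in WT, so that ASC-/- lay below WT and Casp1-/- largely above it (3.94-fold lower, adjusted p = 0.0115). Cd209d, outside the list, read 5.49, 5.84 and 6.57 against 8.54, 8.93 and 7.72 (5.37-fold lower, adjusted p = 0.017). Of 7 measured genes of the Cd209 family, picked out after their values were seen, 5 were lower and 0 higher, and Cd209a (-1.06, adjusted p = 0.0986) and Cd209c (within the background range) missed the threshold. None of the 5 passed with the block or without ASC-/- replicates 1 or 2.

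The chemokine Ccl24 (2.70-fold lower, adjusted p = 0.0115), the lectin Cd209f (2.91-fold lower) and the haemoglobin scavenger receptor Cd163 (2.27-fold lower, adjusted p = 0.0166) were also lower. Cd163 read 7.01, 7.11 and 7.49 in ASC-/-, 8.29, 8.56 and 8.32 in Casp1-/- and 7.38 to 8.23 in WT. The lectin Mgl2 (-1.36), Ccl8 (-1.64) and Cbr2 (-1.19) made up the rest. The 2 higher members were Arg1, an arginase (6.01 to 6.22 against 4.60 to 5.28), and Clec10a (0.86). Timd4 (within the background range), Lyve1 (-0.68) and Mrc1 (0.59) did not pass. The 7 downward calls became 0 without ASC-/- replicate 1, 1 without ASC-/- replicate 2, 1 without Casp1-/- replicate 2, 3 and 4 without Casp1-/- replicates 1 and 3, and 0 with the block (median -0.35) or the actin covariate (median -0.38). Without ASC-/- replicate 1, ASC-/- replicate 2 or Casp1-/- replicate 2 the median was -0.46, -0.58 or -0.53. On the mean of the list, Casp1-/- replicate 3 (8.31) lay below ASC-/- replicate 3 (8.32).

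Genes of the inflammasome itself, beyond the targets, differed in 4 of 19 cases, all higher in ASC-/- (median 0.21), against 3.85% of all genes higher. Il1rn, the natural antagonist of the interleukin-1 receptor, read 9.08, 8.59 and 8.27 in ASC-/-, 6.35, 5.33 and 6.10 in Casp1-/- and 7.45 to 9.28 in WT (6.60-fold, adjusted p = 0.0135). Its other probe sets were higher by 2.15 and 2.21. The inflammasome sensor gene Naip2 read 7.25, 7.13 and 7.36 against 5.41, 5.07 and 5.21 (4.04-fold, adjusted p = 0.0106), the ATP-gated channel P2rx7 was 2.49-fold higher (adjusted p = 0.0254, other probe sets 0.16 to 1.42), and the receptor subunit Il1rap was higher (5.41 to 5.79 against 4.55 to 4.90, the latter within the background range, adjusted p = 0.0135) on 1 probe set, with others between -0.07 and 0.27.

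The cytokines that caspase-1 cuts did not differ past the threshold. Il18 read 7.54, 8.08 and 7.90 in ASC-/- and 8.04, 8.50 and 7.89 in Casp1-/-, and these overlapped (-0.30 ± 0.19 SE, adjusted p = 0.353). Il1b (3.78 to 4.03 against 4.02 to 4.29) and the sensor Nlrp3 (4.25 to 4.61 against 4.18 to 4.31) lay within the background range, and no level can be given for them. The 4 calls became 0 without ASC-/- replicate 1 or Casp1-/- replicate 2, 2 without ASC-/- replicate 2 or Casp1-/- replicate 3, 1 with the actin covariate and 0 with the block.

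Of 33 chemokines and cytokines measured, 6 were higher and 4 lower in ASC-/- (median 0.16), against 3.85% and 3.54% of all genes. The monocyte attractants Ccl9 (12.46 to 12.69 against 10.73 to 11.34, 2.85-fold, adjusted p = 0.0106) and Ccl6 (1.98-fold, adjusted p = 0.0148) were higher, and Cxcl14 read 6.86, 5.97 and 6.58 against 4.14, 4.02 and 4.26 in the background range (adjusted p = 0.0203). Cxcl12 (0.82) was higher too, as were Tgfb1 (6.44 to 7.22 against 4.82 to 5.05) and Cxcl2 (4.85 to 5.38 against 3.32 to 3.83), whose Casp1-/- means lay in that range. The lower ones were Ccl8 and Ccl24, named above, with Ccl12 (4.47 to 5.12 against 5.68 to 6.58) and Ccl17, the latter within the background range in both genotypes. Ccl2, the main monocyte attractant of fat, read 9.50, 9.74 and 9.95 in ASC-/- and 9.13, 8.43 and 8.68 in Casp1-/-, without overlap, but missed the threshold (0.98 ± 0.26 SE, adjusted p = 0.0522). Tnf lay within the background range. The 10 calls became 0, 2 and 5 without ASC-/- replicates 1, 2 and 3, 4, 0 and 3 without Casp1-/- replicates 1, 2 and 3, 2 with the actin covariate and 0 with the block, where the median was -0.07.

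Of 15 genes of MHC class II presentation, 6 were higher and 0 lower (median 0.49), among them the invariant chain Cd74 (11.61 to 11.73 against 10.40 to 10.64, 2.23-fold, adjusted p = 0.0254), the peptide loading subunit H2-DMb1 (2.60-fold, adjusted p = 0.0133) and the thiol reductase Ifi30 (2.84-fold, adjusted p = 0.018). H2-DMb2 was 2.01-fold higher (adjusted p = 0.0113) on 1 probe set and -0.56 on its other. The class II chains H2-Aa (0.43) and H2-Eb1 (0.51) did not pass. The count was 0, 2 and 3 without ASC-/- replicates 1, 2 and 3, 2, 0 and 2 without Casp1-/- replicates 1, 2 and 3, 3 with the mean over probe sets, 1 with the actin covariate and 0 with the block, where the median was 0.08.

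Of 13 B cell and plasma cell markers 3 were higher, namely Cd72, the adaptor Blnk (5.29-fold, adjusted p = 0.0129) and the receptor Tnfrsf13b (1.93-fold, adjusted p = 0.0303). Macrophages also express the first pair, and the defining B cell genes Cd79a (0.01), Cd79b (-0.02), Ms4a1 (-0.64) and Pax5 (0.03) did not pass. T cell and NK cell markers lay within the background range for 19 of 22 genes. Cd247 (4.27 to 4.85 against 5.37 to 5.91, adjusted p = 0.0133, other probe sets -0.31 to -0.09) and Cd2 (4.79 to 5.12 against 5.45 to 5.70, adjusted p = 0.043) were lower in ASC-/-, a share of calls near the 7.39% of all genes. Of 20 interferon-stimulated genes, Oasl2 was higher by 0.67 (adjusted p = 0.0295) and Ifit2 and Ifit3 were 1.45-fold and 1.90-fold lower (adjusted p = 0.0196 and 0.0385). None of the calls of these 3 lists passed with the block, without ASC-/- replicate 1 or 2 or without Casp1-/- replicate 2, and the interferon calls were lost without any 1 array of either null genotype. The actin covariate left 2 B cell, 1 T and NK cell and 0 interferon calls.

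Of 17 metalloproteinases and inhibitors 6 were higher in ASC-/- and 2 lower (median 1.26). Adam12, an enzyme of fat progenitors and fibroblasts, read 8.92, 9.01 and 8.71 in ASC-/-, 7.48, 7.55 and 7.83 in Casp1-/- and 8.95 to 9.56 in WT. It was 2.40-fold higher (adjusted p = 0.0104) and was the member that passed with the block (1.81, adjusted p = 0.0159), and it lost the call without ASC-/- replicate 1 or Casp1-/- replicate 2. Besides Mmp3 and Adam8, the macrophage elastase Mmp12 (2.62), Mmp14 (1.33) and the inhibitor Timp1 (1.67) passed. Mmp12 and Mmp3 lie 8 and 10 tested genes from Casp1 on chromosome 9. Adamts1 was 1.98-fold lower (8.24 to 8.72 against 9.26 to 9.64, adjusted p = 0.0129), and Adamts5 was lower too (-0.53). The 8 calls became 0, 1 and 6 without ASC-/- replicates 1, 2 and 3, 4, 0 and 4 without Casp1-/- replicates 1, 2 and 3, 12 without WT replicate 3 and 3 with the actin covariate.

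Of 30 matrix genes 4 were higher (median 0.14), against 3.85% of all genes higher. Col1a1 read 9.68, 9.65 and 9.61 against 8.21, 8.52 and 7.89, with WT replicate 1 at 8.47 and the other WT arrays at 9.38 to 9.86 (2.71-fold, adjusted p = 0.0259; 0.37 with the block). Tnc (1.74-fold, other probe set 0.11), Col5a2 (1.48-fold) and Col3a1 (1.31-fold) were the others. All 4 calls of this list were lost with the block, with the actin covariate and without any 1 of the ASC-/- or Casp1-/- arrays, and there were 7, 2, 9 and 1 without WT replicates 1, 2, 3 and 4.

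Of 22 immediate early genes 6 were higher and 0 lower (median 0.37), against 3.85% and 3.54% of all genes. Fos read 10.84, 10.38 and 10.25 in ASC-/-, 8.36, 8.05 and 8.16 in Casp1-/- and 9.48 to 10.61 in WT (4.92-fold, adjusted p = 0.00957), and Egr2 was 4.06-fold and the phosphatase Dusp1 2.76-fold higher (adjusted p = 0.018 and 0.0299). Egr1 (0.17), Jun (0.11) and Nr4a1 (0.33) did not pass. Of 23 genes of the unfolded protein response 5 were higher, namely Atf3 and the chaperones or cofactors Calr (1.35-fold), Creld2 (1.49-fold), Hsp90b1 (1.36-fold) and Canx (0.37), while the sensor targets Hspa5 (0.07) and Ddit3 (-0.22) did not pass. Neither list had a call without ASC-/- replicate 1, without Casp1-/- replicate 2 or with the block, and the actin covariate left 1 and 0. Without ASC-/- replicates 2 and 3 and Casp1-/- replicates 1 and 3 there were 1, 3, 3 and 3 early gene calls and 0, 1, 1 and 1 unfolded protein response calls, and the latter were 3, 8 and 2 without WT replicates 2, 3 and 4.

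Of 24 adipocyte core genes, Cebpb was 1.44-fold higher (adjusted p = 0.0173, other probe sets 0.03 and 0.70) and Pparg, the master regulator of fat cells, was lower. This share of calls is near the 7.39% of all genes. Pparg read 10.12, 10.55 and 10.68 in ASC-/-, 11.14, 11.20 and 11.48 in Casp1-/- and 10.06 to 10.70 in WT (1.77-fold lower, adjusted p = 0.0351). Both calls were lost with the block, without Casp1-/- replicates 1, 2 or 3 and without ASC-/- replicate 2. The Pparg call was also lost without ASC-/- replicate 1. The median of the list was -0.34, against -0.042 over all genes, with 20 of 24 below 0. The adipokine Adipoq read 13.46 to 13.56 against 13.72 to 13.73 (-0.20, adjusted p = 0.293) and Lep 12.55 to 12.80 against 12.73 to 12.87 (-0.07, adjusted p = 0.82). With the block the median was -0.06. WT replicate 3 had the lowest mean of the list (10.12, against 10.48 to 11.11 on all other arrays), and without that array 10 members were lower in ASC-/- and 1 higher.

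Calls among lipid synthesis genes were few. Mogat1, which makes diacylglycerol, read 5.80, 6.36 and 6.60 in ASC-/-, 8.60, 9.08 and 8.58 in Casp1-/- and 5.24 to 7.52 in WT (5.66-fold lower, adjusted p = 0.0269). Mogat2 (2.61-fold) and G0s2, an inhibitor of the lipase ATGL (1.74-fold), were lower as well, and 12 of 15 genes of triglyceride turnover did not pass. Of 16 fatty acid synthesis genes Acaca, the acetyl-CoA carboxylase, passed (8.74, 9.14 and 9.22 against 10.12, 10.24 and 10.33, 2.29-fold lower, adjusted p = 0.0261, other probe set -0.33), and Fasn did not (11.51 to 11.94 against 12.42 to 12.68, -0.73, adjusted p = 0.0916). Of 17 cholesterol synthesis genes Msmo1 passed (1.43-fold higher, adjusted p = 0.0244, other probe set 0.215). These single calls of 16 and 17 genes are near the 7.39% called over all genes. All calls of these 3 lists were lost without ASC-/- replicate 1 or 2, without any 1 Casp1-/- array, with the actin covariate and with the block. Without WT replicate 3 there were 6 lower genes of triglyceride turnover and 5 of fatty acid synthesis.

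Of 41 oxidative phosphorylation genes and 29 genes of the citric acid cycle and fatty acid oxidation 0 passed limma's threshold, and 11 and 9 had an unadjusted p under 0.05, a share near that of all genes (4446 of 17097), with medians of -0.20 and -0.17. Without WT replicate 3 there were 8 lower genes in each. For the former 37 of 41 lay below 0 and 32 were lower without overlap between the genotypes, against 23.1% of all genes lower without overlap. With the block the medians were -0.03 and 0.01. Of 18 genes of branched-chain amino acid breakdown 3 were lower, namely Acadsb (1.96-fold), Dbt (1.67-fold) and Acad8 (1.37-fold), and the median was -0.61 (-0.17 with the block). These 3 calls were lost with the block, with the actin covariate and without any 1 of the ASC-/- or Casp1-/- arrays or WT replicate 4, while there were 6, 1 and 15 without WT replicates 1, 2 and 3. Of 19 genes of insulin signalling and glucose transport, Hk2 (2.17-fold, adjusted p = 0.0319) and Grb10 (1.52-fold, adjusted p = 0.027, other probe sets -0.28 and -0.11) were lower, and Slc2a4, the insulin-regulated glucose transporter, was not past the threshold (-1.27). This share of calls is not far above the 7.39% of all genes, and both calls were lost with the block and with the actin covariate. Without WT replicate 3 there were 3 higher and 6 lower members, without WT replicate 1 there were 2 and 4, and without any 1 array of either null genotype other than ASC-/- replicate 3 there was 0.

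Of 17 clock genes measured, Npas2 and Arntl (0.93), which form the activating arm, were higher in ASC-/-. Tef (2.17-fold, other probe set -0.22), Hlf, Bhlhe40 (2.11-fold) and Cry2 (-0.99) were lower. Hlf, a factor of the output arm, read 4.45, 4.93 and 4.64 in ASC-/-, 5.89, 6.28 and 6.16 in Casp1-/- and 4.99 to 5.82 in WT, and did not overlap (adjusted p = 0.0123), with the ASC-/- arrays in the background range. Dbp (-1.66), Per3 (-1.46) and Per2 (-0.77) did not pass. The median was -0.43, and -0.60 with the block, which left 0 members past the threshold. The 6 calls became 1, 2 and 5 without ASC-/- replicates 1, 2 and 3 and 4, 1 and 3 without Casp1-/- replicates 1, 2 and 3. The hours at which the mice were killed are not given in the sources used here.

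**Figure D5:**
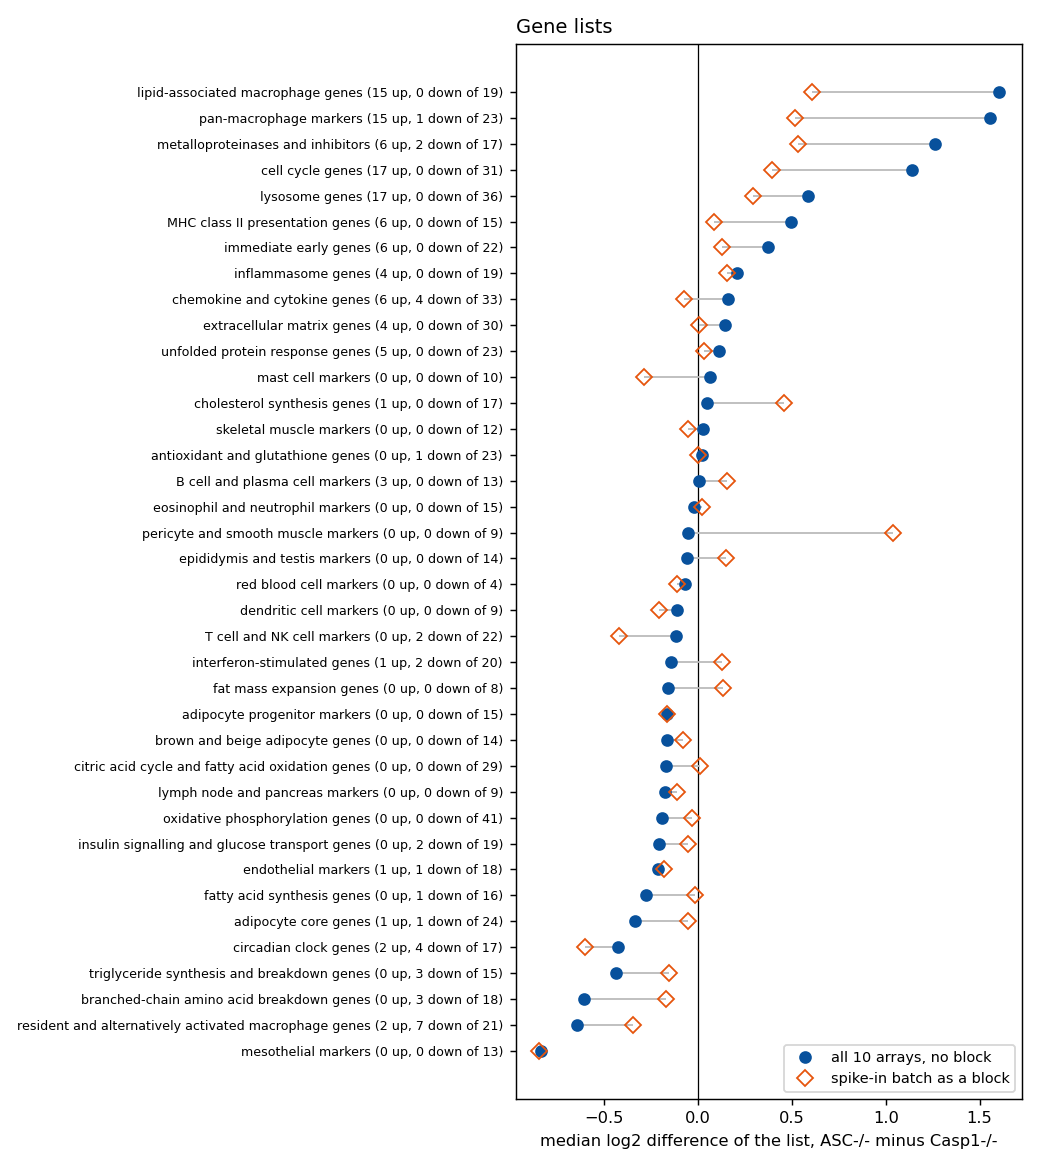
Median log2 difference, ASC-/- minus Casp1-/-, of each of the 38 gene lists in the fit of all 10 arrays (filled circles) and with the spike-in set as a block (open diamonds), joined by a line; the numbers give members past the threshold higher (up) and lower (down) of those measured. The lipid-associated and pan-macrophage, metalloproteinase, cell cycle and lysosome lists have the largest positive medians (0.58 to 1.61), and the block moves each of them towards 0.

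Rnase2a was among the largest falls in ASC-/- against Casp1-/- fat. Rnase2a, a ribonuclease of eosinophils and macrophages, read 3.34, 3.38 and 3.32 in ASC-/-, 7.58, 6.10 and 7.91 in Casp1-/-, and 3.66, 5.71, 3.18 and 3.22 in WT, so that it was above the background range on all Casp1-/- arrays and on WT replicate 2 (adjusted p = 0.0149). Agt, the precursor of angiotensin, read 6.96, 7.54 and 7.97 against 9.60, 9.64 and 9.32 (4.08-fold lower, adjusted p = 0.0348). Stc2, a secreted stanniocalcin, was 4.45-fold lower (4.59 to 5.56 against 7.25 to 7.38, adjusted p = 0.0115), with other probe sets at -1.13 and -0.57. Prkag3, a regulatory subunit of AMP kinase, was 4.54-fold lower (adjusted p = 0.0166), and the vesicle protein Syt12 fell by 2.32 on the log2 scale (adjusted p = 0.0397). Adamtsl2, a matrix protein of microfibrils, read 4.25, 5.18 and 5.18 against 6.87, 7.71 and 6.81, and Trhde, which degrades thyrotropin-releasing hormone, 3.38 to 3.82 against 5.26 to 6.02. These last 2 belong to the 43 genes called without any single array, and neither passed with the block (adjusted p = 0.151 and 0.152), nor did Rnase2a, Agt, Stc2, Prkag3 or Syt12 (0.257 to 0.874).

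Markers of other tissues that a dissected fat pad can hold moved unevenly over the arrays. The mean of 14 epididymis and testis markers was 4.84, 3.41 and 3.42 in ASC-/-, 4.05, 4.42 and 3.72 in Casp1-/- and 3.36 to 4.36 in WT, with 10 of the 14 in the background range. Mesothelial markers had a median of -0.84 with 0 calls by limma among 13, and Casp1-/- replicate 2 was highest (7.34, against 5.75 to 6.25 in ASC-/- and 6.10 and 6.82 on the other Casp1-/- arrays). Mast cell, dendritic cell, eosinophil and neutrophil, red blood cell, skeletal muscle, pericyte, progenitor and lymph node or pancreas lists had 0 members past limma's threshold in either direction. At an unadjusted p under 0.05 these lists had 0, 3, 3, 0, 3, 2, 1 and 1 members, and the epididymis and mesothelial lists 1 and 2. The list of brown and beige adipocyte genes and that of genes tracking fat mass had 0 calls as well, with 1 member each at an unadjusted p under 0.05. Ucp1, the uncoupling protein of brown fat, was in the background range in both null genotypes (0.05). Of 18 endothelial markers Ramp2 was higher (2.81-fold, adjusted p = 0.0427) and Egfl7 lower (1.73-fold, adjusted p = 0.0486), with other probe sets of Ramp2 between -0.58 and 1.79. That share of calls is not far above the 7.39% of all genes. Of 23 antioxidant genes Gstt1 was lower, at 8.77 ± 0.09 against 9.96 ± 0.04 (SD, n = 3 each; 2.28-fold, adjusted p = 0.0112), a share of calls below the 7.39% of all genes. These calls were lost with the block and without ASC-/- replicate 1 or Casp1-/- replicate 2, and the endothelial ones also without ASC-/- replicates 2 or 3, Casp1-/- replicate 1 or WT replicates 2 or 4. The part of these tissues in the differences above was not tested.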

How the data were processed

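RNA of each mouse was labelled from its poly-A ends and read on 1 array. The authors deposited log2 signals after RMA (background correction, quantile normalization and summary by probe set), per the submitters' processing notes; version and genome build are not given in the sources used here. Of 45141 probe sets, 104 controls and 15588 without and 551 with several symbols were left out; the brightest probe set over all arrays stood for each of 17097 genes, so that the choice uses no group. limma 3.58.1 fitted the 3 genotype means on the 10 arrays at once, and the contrast was ASC-/- minus Casp1-/-, with Benjamini-Hochberg adjustment over all genes and a threshold of 0.05. WT arrays add to the spread estimate only. With 3 arrays a group precision is limited by the number of mice, and p-values measure the spread between these arrays alone. Microarray signal gives no read depth, and the background control probe sets served as the lower limit.

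The members and gene lists (713 of 818 list entries matched a gene; the rest were not analysed here) were chosen with earlier results of these data known. Named by rule were the targets, genes on the Pycard chromosome or varying between substrains, fixed markers, the 12 largest rises and falls without overlap, and up to 4 members of each list with the smallest p. Predicted genes and the targets were left out of the largest rises and falls. Other list members and gene families were named after their values were seen. Simulated arrays with known changes served to check the scripts. Same-numbered ASC-/- and Casp1-/- arrays did not deviate together (correlations -0.017, -0.087 and 0.001), so numbers were not taken as pairs. Alternatives covered normalization, centring, dim genes, probe sets, moderation, array weights, arrays in the fit, replicate and spike-in blocks, RNA quality and single arrays. Every column of values was mapped to a sample (0 unmapped).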

Additional observations from a re-analysis of the deposited data

Results flagged for a closer look

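All results named here concern the 4 WT arrays, the only group large enough for a check of single outlying arrays. Of 150 sets of values checked, 6 had 1 array far from the other 3, and chance alone flags about 1 in 20 such sets. On the second principal component of all arrays WT replicate 1 lay at -40.45. The mean of the adipocyte core genes was 10.12 on WT replicate 3, below the other WT arrays, and so were Mogat1 (5.24) and Dbt (7.97) there. Ucp1 read 9.30 on WT replicate 4 and within the background range elsewhere. Gstt1 read 9.88 on WT replicate 4, near the Casp1-/- arrays, against 9.17 to 9.27 on the other WT arrays. WT arrays enter the comparison of the null genotypes through the estimate of spread and through the spike-in block.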

How the results depend on the processing

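Of the 1264 genes past the threshold (658 higher, 606 lower), the total stayed within 1.5 times under quantile normalization, centring, the filter on dim genes, the mean over probe sets, the trended and robust step and every probe set tested alone. It was 3428 (1600 and 1828) with array weights, 3248 (1548 and 1700) with the 6 compared arrays alone, 231 (119 and 112) with the actin difference as a covariate and 63 (55 and 8) with the spike-in block. Replicate numbers do not pair these arrays; with the replicate number as a block the total was 2127 (1117 and 1010) over the compared arrays and 19 (6 and 13) over all 10. Leaving out 1 array gave 15 to 1245 higher, 32 to 1370 lower and 47 to 2615 in all, lowest without ASC-/- replicate 1 and highest without WT replicate 3. Of the single genes named, 626 of their values under alternatives fell short of the threshold, 18 moved past it (Dock2, Fasn and Ccl2), and 0 of those past the threshold turned sign.

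The spike-in block turned the sign of the list medians of chemokines (-0.074), interferon-stimulated genes (0.12), citric acid cycle (0.011), pericyte (1.04), fat mass (0.13), mast cell (-0.29), eosinophil and neutrophil (0.020), epididymis (0.15) and skeletal muscle genes (-0.053). The other medians it moved were 0.15 for inflammasome genes, 0.52 for pan-macrophage, 0.61 for lipid-associated macrophage, -0.35 for resident macrophage, 0.29 for lysosome, 0.084 for MHC class II, -0.21 for dendritic cell, -0.42 for T and NK cell, 0.39 for cell cycle, -0.06 for adipocyte core, -0.018 for fatty acid synthesis, -0.16 for triglyceride, 0.46 for cholesterol and -0.034 for oxidative phosphorylation genes. Further medians with the block were -0.17 for branched-chain amino acid, -0.083 for brown adipocyte, 0.0063 for matrix, 0.53 for metalloproteinase, 0.13 for immediate early, 0.028 for unfolded protein response, -0.06 for insulin and -0.60 for clock genes.

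With the actin covariate the medians that moved were 0.96 for pan-macrophage, 0.90 for lipid-associated macrophage, -0.38 for resident macrophage, 0.42 for lysosome, 0.31 for MHC class II, -0.23 for dendritic cell, -0.028 for interferon, 0.79 for cell cycle, -0.16 for adipocyte core, -0.096 for fatty acid synthesis, 0.32 for cholesterol, -0.14 for oxidative phosphorylation and -0.36 for branched-chain amino acid genes. They were -0.042 for brown adipocyte, 0.91 for metalloproteinase, -0.36 for mesothelial, 0.097 for fat mass, 0.29 for immediate early, 0.071 for antioxidant, -0.016 for insulin and -0.76 for clock genes. With every probe set the interferon median was -0.056, cell cycle 0.73, adipocyte core -0.22, oxidative phosphorylation -0.16, metalloproteinase 0.44, insulin -0.13 and clock -0.25. With the mean over probe sets eosinophil and neutrophil markers were at -0.082, unfolded protein response at 0.18, insulin at -0.12 and clock at -0.30. The MHC class II median was 0.53 with array weights, oxidative phosphorylation -0.23 with centring, and eosinophil and neutrophil 0.061 without dim genes.

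Leaving out 1 array moved medians over 0.15 to 0.29 for inflammasome, 0.41 to 0.58 for MHC class II, -0.21 to -0.066 for dendritic cell, -6e-04 to 0.27 for chemokine, -0.081 to 0.23 for cholesterol, -0.23 to -0.14 for citric acid cycle, -0.20 to -0.066 for brown adipocyte, 0.096 to 0.20 for matrix, 0.24 to 0.45 for immediate early, 0.059 to 0.15 for unfolded protein response, -0.058 to 0.058 for antioxidant, -0.33 to -0.12 for insulin and -0.51 to -0.31 for clock genes. Without ASC-/- replicate 3 the chemokine, antioxidant, cholesterol, B cell, eosinophil and neutrophil, and skeletal muscle medians turned sign, and some medians near 0 also turned without another array or under another setting. Apart from fits with fewer arrays, the cause of these moves was not tested. Means within the background range limit the folds of called genes (both means for 95, one for 159).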

Other observations

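Receptors of the Cd300 family, paired activating and inhibitory receptors of myeloid cells on chromosome 11, were picked out after their values were seen. Of 6 measured, 4 were higher in ASC-/- than in Casp1-/- fat, by 2.63 (Cd300a), 2.52 (Cd300c2), 2.66 (Cd300lb) and 2.24 (Cd300ld) on the log2 scale. Cd300lb read 10.76, 10.26 and 10.04 against 8.05, 6.79 and 8.23, with no overlap (adjusted p = 0.0166). Cd300lf was lower within the background range (3.29 to 3.42 against 3.67 to 4.00), and Cd300lg, a receptor of endothelium, overlapped (0.15, adjusted p = 0.717). The 4 higher members lost the call without ASC-/- replicate 1, ASC-/- replicate 2 or Casp1-/- replicate 2, and none of them passed with the spike-in block.

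Genes on the chromosomes next to each deleted gene were also looked at after values were seen, by gene order in RefSeq on GRCm38.p6. Among the 100 tested genes nearest Pycard, 50 on each side, 6 were higher and 4 lower, and among 57 tested genes near Casp1 5 were higher and 3 lower, against 7.39% of all genes called in either direction. Gdpd3 and Slx1b, also called and on chromosome 7, are not among the genes counted near Pycard. Near Pycard, Sec23ip, a vesicle coat partner, was lower (-0.64, adjusted p = 0.0106), as was Rusf1 (-0.58, adjusted p = 0.0115). Near Casp1, the growth factor gene Pdgfd, 3 tested genes away, was higher in ASC-/- (6.91 to 7.22 against 4.90 to 6.17, adjusted p = 0.0435), with its other probe set at 0.20. Cfap300, a gene of motile cilia, was lower (adjusted p = 0.0175), with its ASC-/- mean in the background range. None of these 4 passed with the block.

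Of the 1264 genes called, 610 had several probe sets, and for 479 of these all probe sets had the same sign.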
